A study of Homo sapiens with 6 samples.

Results

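The genes described here encode histone variants and a linker histone. They were chosen by symbol, which found 10 of the 23228 gene rows of the table, and 9 of these are described: H2AFX, H2AFZ, H2AFV, H2AFY, H2AFY2, H2AFJ, H3F3A, H3F3B and H1FX. RNA was sequenced from SaOS2 cells, an osteosarcoma line that lacks RB and p53, carrying a Tet-inducible p21 vector. The p21 OFF cells (3 libraries) were untreated, and p21 ON cells (3 libraries) received doxycycline at 1 μg/ml for 24 h. All were grown in DMEM with serum. Both groups carry the vector, and cells treated with doxycycline in the absence of the vector were not analysed here, so changes due to p21 and to doxycycline itself cannot be told apart. The study's methods call the replicates biological, while the labels only number them and do not say whether they were separate cultures, so p-values measure the spread between these libraries. The values are counts per gene divided by a size factor of the library, called normalized counts.

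DNA is wound around octamers of the core histones H2A, H2B, H3 and H4, and a linker histone H1 binds where the DNA enters and leaves. The canonical core histone genes are transcribed during DNA replication, and most of their mRNAs end in a stem-loop in place of a poly(A) tail. Histone variants are encoded by separate genes and are mostly made outside replication as well. Their mRNAs mostly carry poly(A) tails, and the proteins are placed at particular sites by their own chaperones.

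The libraries held 12795490 to 21975045 reads on genes. In p21 ON cells CDKN1A, the gene of p21, had 43691 ± 3138 normalized counts against 1266 ± 84.5 in p21 OFF cells (SD, n = 3 per group), or a log2 fold change of 5.11. Of 7 osteoblast markers, 6 had a mean of at least 10 normalized counts and 1 of them, IBSP, was lower with p21 ON, while BGLAP was listed at 0. The summed level of the 7 markers was 71371 to 74079 normalized counts in p21 OFF and 72412 to 75635 in p21 ON libraries. Of 3 epithelial markers, EPCAM had 330.2 and 313 normalized counts with p21 OFF and ON and CDH1 had 2.63 and 1.34, and the sum of the 3 was 328 to 398 and 317 to 357. The blood cell markers PTPRC and CD3E summed to 4.43 to 7.81 and 3.66 to 10.5. Among the p21 OFF libraries, replicate 1 stood apart, with a chi-square per gene of 8.50 and 9.26 against the other replicates, where these differed from each other by 3.03.

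Between p21 OFF and p21 ON, 4 of the 9 genes fell, and none rose. Those were H2AFX, H2AFZ, H3F3B and H1FX, whose fitted folds, p21 ON over p21 OFF, were 0.577 to 0.775. H2AFV, H2AFY, H2AFY2 and H2AFJ did not pass the test, and H3F3A was listed at 0 in every library and was not tested. All 13255 genes averaging 10 or more entered a limma fit of log2(normalized count + 1), and a gene was called where its Benjamini-Hochberg adjusted p lay under 0.05. It called 12.7% of all genes tested lower and 10.5% higher, against 4 lower and 0 higher among the 8 histone genes tested. The p21 ON libraries lay wholly below the p21 OFF libraries for 5 of the 8, and for 21.3% of all genes, and wholly above for 0 of the 8, and for 19.1% of all genes. At an unadjusted limma p under 0.05, H2AFV was also lower and none was higher. The share of all genes at that looser threshold was not counted, so H2AFV is not called. The edgeR and DESeq2 tests on whole reads each called the same number, 4 lower and 0 higher, where edgeR called 12.4% of all genes lower and 10.6% higher and DESeq2 11.4% of 12481 genes lower and 8.96% higher. The median log2 fold change of the 8 genes was -0.25, and that of all genes tested was 0.0056.

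The counts over all genes, 1393 higher and 1681 lower, moved with the setting. They were 695 and 887 without p21 ON replicate 1 and 739 and 1077 without p21 ON replicate 3, and with scaling by library size alone they were 2034 and 1194. Under each of these the histone genes called lower numbered 4, but without a filter on low values they numbered 2. Together the 9 rows summed to 23932 to 26311 normalized counts with p21 OFF and 18738 to 19125 with p21 ON, so the groups did not overlap. H3F3B, with means of 9998 and 7224, weighs most in that sum, and H3F3A adds 0. The sum does not stand for each gene, as 4 of those tested did not pass the test. In bulk samples, fewer cells of a kind and less RNA per cell cannot be told apart.

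**Figure D1:**
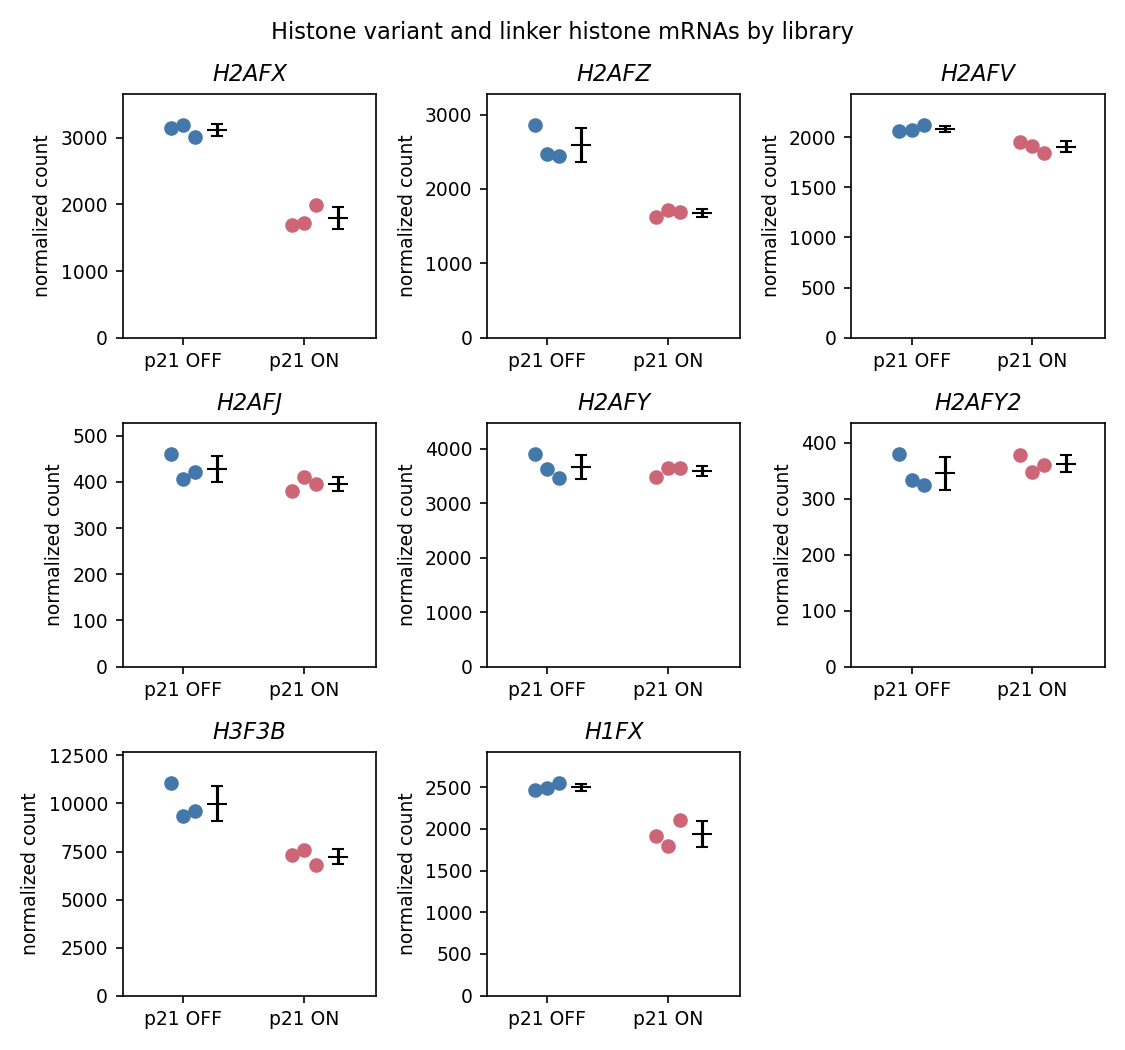
Normalized counts (y axis, from 0) of the 8 histone variant and linker histone genes with reads, by group (x axis). Points are libraries, and the bar beside them is the mean with the SD (n = 3). H2AFX, H2AFZ, H2AFV, H3F3B and H1FX have no overlap between the groups, and H2AFY, H2AFY2 and H2AFJ overlap.

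The promoters of the genes that fell were compared with that of H2AFV, the near-identical partner of H2AFZ that did not pass the test. The sequences are RefSeq windows of 300 bases, 250 before and 50 after a transcription start, in build GRCh38.p14, and all 9 genes matched a window by symbol or older symbol. The letters searched on both strands were the CHR element (TTTGAA), known from promoters of cell cycle genes, the box that reads CCAAT, bound by NF-Y, and heptamers of the E2F site. The E2F forms were 4 in number: the heptamer with the letters TTCCCGC, the form whose letters read TTCGCGC, the form whose letters read TTGGCGC, and lastly the form whose letters read TTGCCGC. The 250 bases before the start are shown 5′ to 3′ on the gene's strand, with matches in capitals. Letters that lie on the other strand appear as their reverse complement.
H2AFX, chr11:119095466-119095715, minus strand: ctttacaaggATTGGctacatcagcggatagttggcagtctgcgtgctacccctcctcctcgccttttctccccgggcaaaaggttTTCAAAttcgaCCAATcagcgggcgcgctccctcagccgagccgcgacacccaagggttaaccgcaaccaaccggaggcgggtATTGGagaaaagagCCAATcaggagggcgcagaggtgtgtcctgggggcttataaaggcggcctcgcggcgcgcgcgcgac
H2AFZ, chr4:99950276-99950525, minus strand: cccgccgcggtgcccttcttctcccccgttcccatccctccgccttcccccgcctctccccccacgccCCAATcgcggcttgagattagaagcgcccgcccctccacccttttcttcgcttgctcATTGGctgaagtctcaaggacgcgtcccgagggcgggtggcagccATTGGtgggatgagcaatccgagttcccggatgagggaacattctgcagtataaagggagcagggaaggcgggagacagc
H2AFV, chr7:44848088-44848337, minus strand: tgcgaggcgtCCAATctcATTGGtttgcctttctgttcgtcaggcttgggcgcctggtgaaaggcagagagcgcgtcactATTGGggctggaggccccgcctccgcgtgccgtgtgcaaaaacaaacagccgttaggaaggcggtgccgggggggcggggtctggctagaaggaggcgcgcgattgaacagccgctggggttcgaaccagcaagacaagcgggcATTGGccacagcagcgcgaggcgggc
H3F3B, chr17:75779780-75780029, minus strand: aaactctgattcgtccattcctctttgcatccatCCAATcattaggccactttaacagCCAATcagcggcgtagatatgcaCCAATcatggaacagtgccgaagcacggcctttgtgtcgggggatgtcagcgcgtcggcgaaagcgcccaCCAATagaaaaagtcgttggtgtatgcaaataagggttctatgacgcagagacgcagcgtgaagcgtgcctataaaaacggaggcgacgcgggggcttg
H1FX, chr3:129316287-129316536, minus strand: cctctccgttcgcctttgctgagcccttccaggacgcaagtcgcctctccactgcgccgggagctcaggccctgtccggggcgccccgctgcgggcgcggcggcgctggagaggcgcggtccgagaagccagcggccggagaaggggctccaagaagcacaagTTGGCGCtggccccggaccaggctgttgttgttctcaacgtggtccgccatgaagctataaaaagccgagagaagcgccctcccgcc

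The CHR letters TTTGAA were found in the windows of H2AFX and H2AFZ and in no other of the 13 windows of these genes. Of all 35116 windows, 15.2% hold them, and 2 of 13 is near that share. No other form of the element was searched, so windows without these letters, that of H2AFV included, may hold another form. In H2AFX the letters TTTGAA begin at -164 on the strand opposite to the gene. In H2AFZ they begin at position 5 after the start, shown here with the bases before them, chr4:99950266-99950295, minus strand.
H2AFZ, -20 to 10: cagggaaggcgggagacagcgcagTTTGAA
Every printed promoter except that of H1FX holds at least 3 CCAAT boxes: 4 in H2AFX, 3 in H2AFZ, 4 in H2AFV and 4 in H3F3B. The window of H2AFJ, which did not pass the test and is not printed, also holds 3. Of all windows, 34.6% hold any CCAAT box. The share with at least 3 was not counted, so these counts have no background to be set against. An E2F heptamer was found in H1FX at -87, in H2AFY2, which did not pass the test, at 14, and in a window of H3F3A at -223, and 13.0% of all windows hold one. No match overlapped another. These matches describe letters, not sites in use, and H2AFV, which did not pass the test, holds as many CCAAT boxes as H2AFX and H3F3B.

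H2AFX encodes H2A.X, the H2A variant that is phosphorylated around DNA breaks. Its 1 exon spans bases 118964584 to 118966175 of chromosome 11 in GRCh37, the build of all gene positions below, on the minus strand. With p21 OFF it had 3145, 3189 and 3012 normalized counts, and with p21 ON 1690, 1724 and 1993. The groups lay far apart, and p21 ON replicate 3 was the highest of its group. H2AFX fell by 0.79 on the log2 scale (standard error 0.07, limma adjusted p = 8.02e-08), and the change stayed between -0.87 and -0.75 with each library left out in turn. Of the 13255 genes tested, 1.63% had a lower value, which made its fall the largest among the 9 genes. The libraries select poly(A) RNA, so the values describe H2AFX mRNA with a tail, and any without a tail was not measured. In the study's lists of cell cycle genes H2AFX belongs to the high-stringency G2/M genes, and H2AFV is in the low-stringency G2/M list.

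The genes with profiles nearest to H2AFX were C19orf79, UBE2S and CCDC18, as measured by the Euclidean distance between log2 values over the 6 libraries after each gene's mean was subtracted. Their distances were 0.13, 0.14 and 0.14, where the median gene lay at 1.03. These genes were picked for that nearness in the same libraries, so falls close to that of H2AFX follow from the choice. UBE2S, a ubiquitin-conjugating enzyme that works with the anaphase-promoting complex, fell from 2548 ± 189 to 1523 ± 189 normalized counts (n = 3, SD), or by 0.75 on the log2 scale. CCDC18 fell by 0.80 and C19orf79 by 0.75 on the log2 scale.

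H2AFZ and H2AFV encode the closely similar proteins of H2A.Z, a variant placed next to gene starts. H2AFZ (chromosome 4, 100869243 to 100871512) had 2855, 2471 and 2442 normalized counts with p21 OFF and 1620, 1717 and 1690 with p21 ON. The groups were well apart, and p21 OFF replicate 1 was the highest library. H2AFZ fell by 0.62 on the log2 scale (standard error 0.07, limma adjusted p = 2.22e-06), and by 0.55 without that library. An exon of the antisense gene H2AZ1-DT overlaps H2AFZ, and 8.58% of the 51-base stretches of its transcript, the length of a read, also occur in other genes, most of them in the pseudogene H2AZP3.

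H2AFV (chromosome 7, 44866390 to 44887686) had 2063, 2074 and 2119 normalized counts with p21 OFF and 1956, 1913 and 1844 with p21 ON. The groups did not overlap, as for 21.3% of all genes tested in that direction, but they lay close together. Its log2 fold change was -0.13, with a 95% interval from -0.25 to -0.0082 and an adjusted p of 0.112 from limma. The log2 ratio of H2AFZ to H2AFV within a library, which does not depend on how libraries are scaled, was 0.31 ± 0.14 with p21 OFF and -0.18 ± 0.08 with p21 ON (SD, n = 3 each). The 2 groups of ratios did not overlap. Their difference was -0.49 (standard error 0.09), with p = 0.1 by a two-sided exact permutation test, which 3 against 3 cannot go below, and 0.15 after adjustment over 3 pairs.

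H2AFJ encodes H2A.J, a variant close to canonical H2A that is known from senescent cells. On chromosome 12 from 14927339 to 14930936, it had 459.7, 405 and 421 normalized counts with p21 OFF and 381, 411 and 395 with p21 ON, and the groups overlapped. Its log2 fold change of -0.11 did not pass the test (95% interval -0.28 to 0.06, adjusted p = 0.325 from limma). The log2 ratio of H2AFX to H2AFJ went from 2.86 ± 0.10 with p21 OFF to 2.18 ± 0.14 with p21 ON (SD, n = 3 each), a difference of -0.68 without overlap (standard error 0.10, two-sided exact permutation p = 0.1, adjusted 0.15).

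H2AFY and H2AFY2 encode macroH2A1 and macroH2A2, H2A variants with a large macrodomain that are known from silent chromatin. H2AFY (chromosome 5, 134670071 to 134735604) had 3901, 3638 and 3460 normalized counts with p21 OFF and 3490.1, 3646 and 3652 with p21 ON. The p21 ON values lay inside the p21 OFF range, and the change was -0.03 on the log2 scale (95% interval -0.15 to 0.10, adjusted p = 0.784 from limma). Its sign turned under scaling by library size alone, at 0.017, and without p21 OFF replicate 1, at 0.019. The splice forms of macroH2A1 cannot be told apart in counts per gene.

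H2AFY2 (chromosome 10, 71812300 to 71872038) had 379, 333 and 324 normalized counts with p21 OFF and 378, 348 and 361 with p21 ON. Here too the groups overlapped. The log2 fold change of 0.07 (95% interval -0.11 to 0.25, adjusted p = 0.579 from limma) was the only positive one among the histone genes tested. The log2 ratio of H2AFY to H2AFY2 was 3.41 ± 0.04 and 3.31 ± 0.09 with p21 OFF and ON (SD, n = 3 each), which overlapped (two-sided exact permutation p = 0.2, adjusted 0.2). Exons of PITX1-AS1 overlap H2AFY and exons of AIFM2 overlap H2AFY2 on the opposite strand, and the strand setting of the counting is not given in the sources used here. Of the 51-base stretches, 6.86% of those of H2AFY and 0.0% of those of H2AFY2 also occur in other genes.

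**Figure D2:**
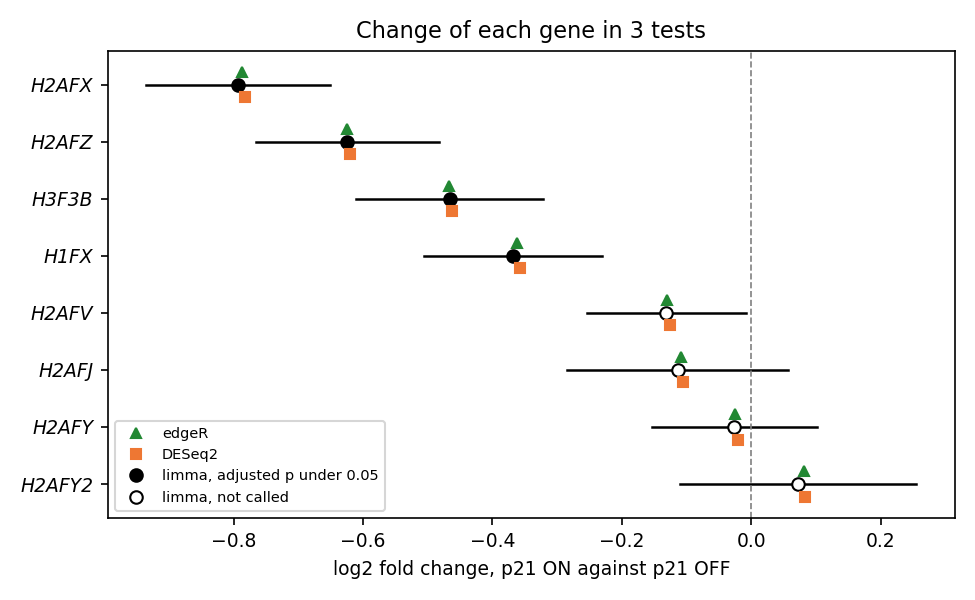
Log2 fold change of p21 ON against p21 OFF (x axis) for the 8 genes tested (y axis). Circles are limma values with 95% intervals as lines, filled where the adjusted p is under 0.05, triangles are edgeR values and squares DESeq2 values on whole reads. The values of the 3 tests lie close together, from -0.79 for H2AFX to 0.07 for H2AFY2 by limma.

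H3F3A and H3F3B both encode H3.3, the H3 variant that replaces H3 outside replication. H3F3B (chromosome 17, 73772515 to 73781974) had the most reads of the 9 genes. It had 11047, 9334 and 9614 normalized counts with p21 OFF and 7303, 7571 and 6799 with p21 ON. All p21 ON libraries were lower, and p21 OFF replicate 1 was again the highest. H3F3B fell by 0.47 on the log2 scale (standard error 0.07, limma adjusted p = 9.89e-05), and by 0.39 without p21 OFF replicate 1. Of its 51-base stretches, 8.06% also occur in H3F3C, which is now called H3-5.

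H3F3A, on chromosome 1 from 226249552 to 226259720, was listed at 0 in all 6 libraries. This gene is used in nearly every cell type, so the value need not mean that its mRNA was absent. Of the 51-base stretches of its transcript, 72.45% also occur in transcripts of other genes, against at most 16.98% for the other 8 genes. The part of these shared stretches in the 0 was not tested. No ratio of H3F3A to H3F3B was formed, and the H3.3 mRNA described here is that of H3F3B.

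H1FX encodes the linker histone H1X. The gene (chromosome 3, 129033614 to 129035129) had 2462, 2489 and 2546 normalized counts with p21 OFF and 1920, 1795 and 2107 with p21 ON, again without overlap. H1FX fell by 0.37 on the log2 scale (standard error 0.07, limma adjusted p = 0.000649). H1FX shares 16.98% of its 51-base stretches with the antisense gene H1-10-AS1.

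**Figure D3:**
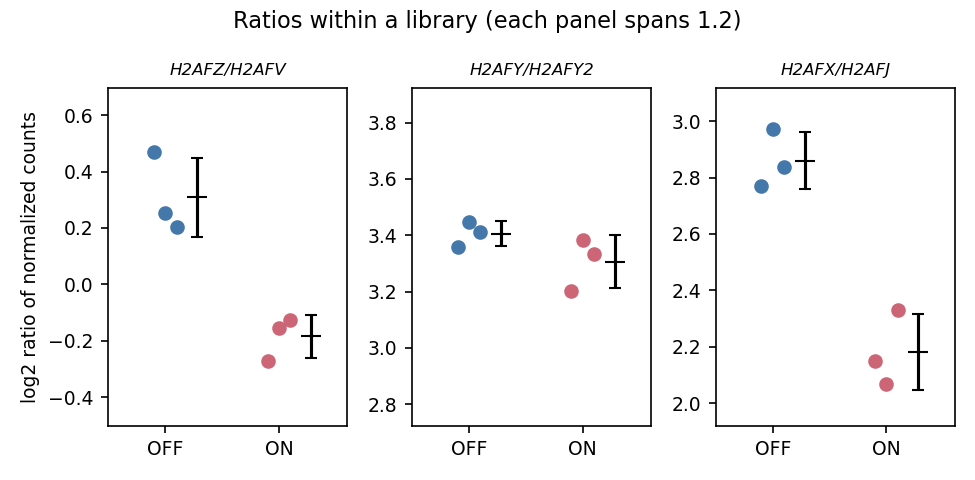
Log2 ratio of normalized counts of gene pairs within each library (y axis, each panel spanning 1.2), by group (x axis), with the mean and SD beside the points (n = 3). H2AFZ/H2AFV and H2AFX/H2AFJ do not overlap between the groups, with differences of -0.49 and -0.68, and H2AFY/H2AFY2 overlaps.

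**Figure D4:**
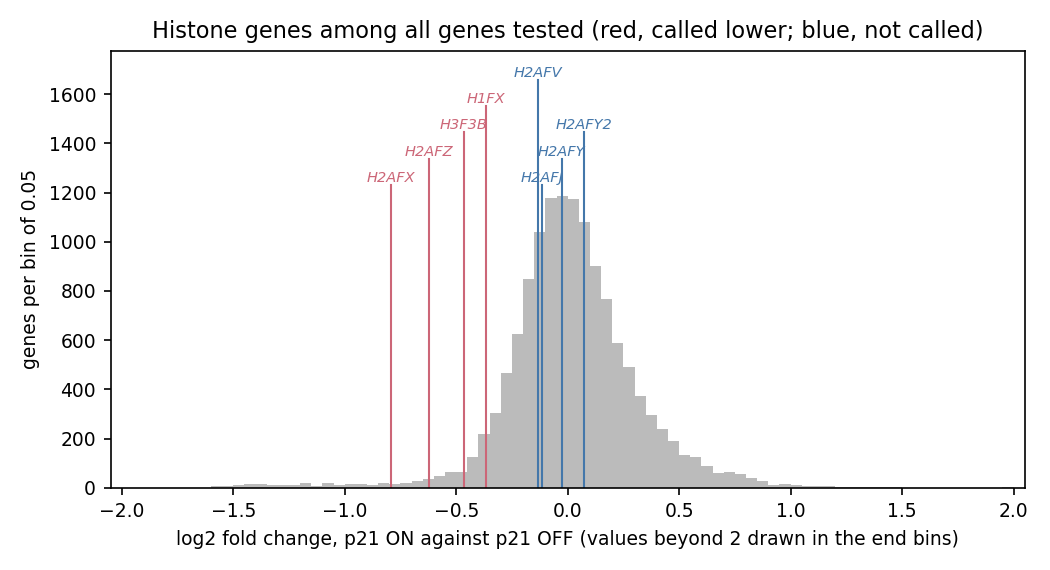
Number of genes per bin of 0.05 (y axis) against the log2 fold change (x axis) for the 13255 genes tested, with the 8 histone genes as lines. The 4 genes called lower, in red, lie in the left part of the distribution, from -0.79 to -0.37, and the 4 others, in blue, lie between -0.13 and 0.07.

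Per kilobase of the canonical transcript, H3F3B had the highest level in both groups, with 3696 ± 340 normalized counts per kilobase in p21 OFF and 2671 ± 145 in p21 ON (SD, n = 3 each). In p21 OFF cells H2AFZ followed with 2990 ± 266, H2AFX with 1957 ± 57.7, H2AFY with 1912 ± 116 and H1FX with 1648 ± 28.6. The levels of H2AFX and H2AFY overlapped, and the other neighbours in that order did not. H2AFJ and H2AFV were lower still, at 691 ± 45.1 and 689 ± 9.79, and overlapped, and H2AFY2 was lowest at 179 ± 15.3. The counts cover a whole gene, while 1 transcript length was used for each, such as 866 bases for H2AFZ and 3026 for H2AFV. The order between genes depends on these lengths, and the SD does not cover that.

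In p21 ON cells the order changed, as H2AFX, with 1132 ± 104, came to lie next to H1FX with 1280 ± 104, and these overlapped. H2AFY, with 1876 ± 47.8, overlapped H2AFZ, with 1935 ± 57.3. H2AFJ and H2AFV again overlapped, at 638 ± 24.2 and 629 ± 18.6 per kilobase, and H2AFY2 had 188 ± 7.76.

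Other histone genes gave mixed results. Of the 72 replication-dependent histone genes, whose mRNAs mostly lack the poly(A) tail that the libraries select, 26 had a mean of at least 10 and were tested, and 13 were listed at 0 throughout. Among the 26, 4 were called lower and 2 higher, which is near the shares of all genes tested, 12.7% lower and 10.5% higher. The linker histone gene HIST1H1C had 736 ± 101 normalized counts with p21 OFF and 556 ± 81.8 with p21 ON (n = 3, SD), and although the groups overlapped it was called, having fallen by a log2 change of -0.40 (limma adjusted p = 0.0094). The H2A and H2B genes HIST1H2BJ, HIST1H2AC and HIST1H2BD fell by 0.75, 0.36 and 0.27 on the log2 scale. The H4 gene HIST1H4H rose by 0.71 on the log2 scale, from 36.4 ± 7.38 to 60.6 ± 15.1 normalized counts (n = 3, SD). HIST1H4I, also an H4 gene, had 6.93 ± 1.45 with p21 OFF and 16.4 ± 4.79 with p21 ON, and since it reached the mean of 10 only through its p21 ON libraries, its call as higher is partly set by that filter. Genes of these clusters are near-identical, so reads can be shared among them.

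Of 10 further variant histone genes, 3 were tested, and 6 were listed at 0. CENPA, the H3 variant of centromeres, fell by 1.34 on the log2 scale (limma adjusted p = 4.02e-09). It had 487 ± 28.8 normalized counts with p21 OFF and 193 ± 17.3 with p21 ON (n = 3, SD). H3F3C, which shares stretches with H3F3B, fell by 0.54 on the log2 scale (adjusted p = 0.0206 from limma).

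Of the 13 genes that place or remove H2A.Z, 6 were lower, 1 was higher and 6 were neither, with a median log2 fold change of -0.22. Of all genes tested, 12.7% were lower and 10.5% higher. ANP32E, a chaperone that takes H2A.Z out of nucleosomes, fell by 0.54 on the log2 scale, from 4633 ± 172 to 3193 ± 151 normalized counts (n = 3, SD, limma adjusted p = 3.25e-06). ACTL6A, RUVBL2 and YEATS4, subunits of the exchange complexes, fell by 0.39, 0.38 and 0.37 on the log2 scale. EP400, the motor protein of such a complex, rose by 0.30.

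Of 7 genes for the placing of H3.3, 1 was higher, UBN1, a subunit of the HIRA complex, which rose by 0.22 on the log2 scale (limma adjusted p = 0.0497), and none was lower. At an adjusted p that near to 0.05 the call is marginal, and 1 of 7 is near the 10.5% of all genes tested that were called higher. The median of the 7 genes was 0.08.

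Of 11 genes that phosphorylate H2A.X or act on the phosphorylated form, 3 were higher and 1 lower, with a median log2 fold change of 0.11. The shares of all genes tested were 10.5% higher and 12.7% lower. The kinase genes PRKDC and ATM rose by 0.42 and 0.25 on the log2 scale, and RNF168, a ubiquitin ligase recruited to breaks, rose by 0.25. PPP4C, a phosphatase that acts on phosphorylated H2A.X, fell by 0.30. PRKDC had 6648 ± 574 normalized counts with p21 OFF and 8874 ± 422 with p21 ON (n = 3, SD), while H2AFX itself fell in the same libraries.

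Of 10 genes for the processing of replication-dependent histone mRNA, 2 were higher and none lower, with a median log2 fold change of -0.02. CASP8AP2, which encodes the processing factor FLASH, rose by 0.51 on the log2 scale, from 999 ± 40.6 to 1420.1 ± 94.7 normalized counts (n = 3, SD, limma adjusted p = 3.62e-05). SLBP, the protein that binds the stem-loop of these mRNAs, rose by 0.25 (adjusted p = 0.0233 from limma). In all 6 lists the counts are a description beside the 12.7% of all genes called lower and the 10.5% called higher.

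**Figure D5:**
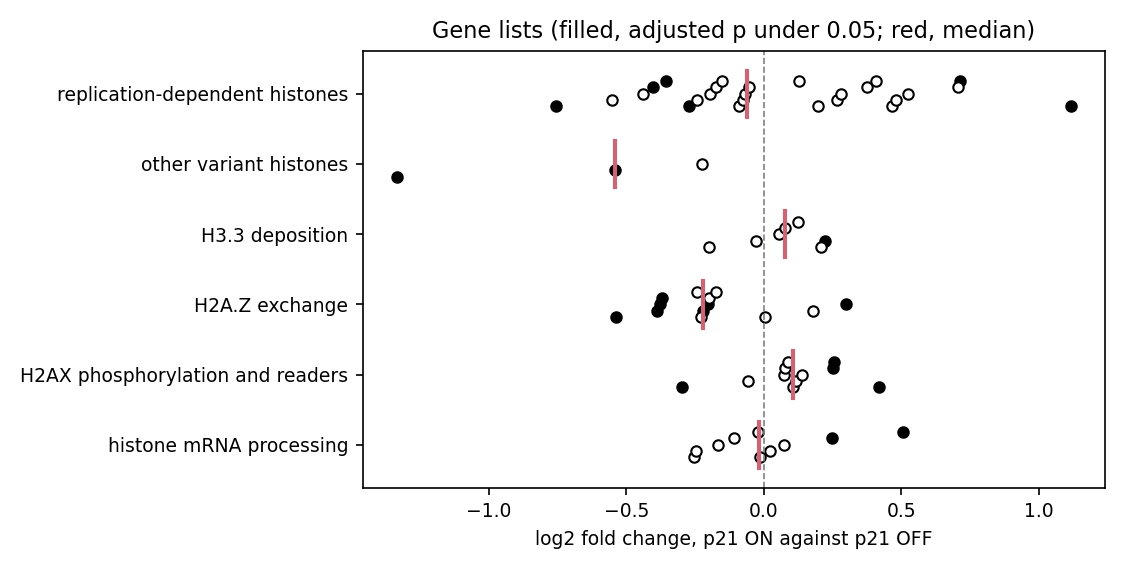
Log2 fold change of p21 ON against p21 OFF (x axis) for the tested genes of 6 lists (y axis). Filled points have an adjusted p under 0.05 from limma, and the red line is the median of the list, which is lowest for the other variant histones at -0.54 and for H2A.Z exchange at -0.22.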

How the data were processed

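Poly(A) RNA of 6 SaOS2 libraries was measured. The authors made stranded mRNA libraries, sequenced them single-end in one lane, aligned with STAR to hg19, took gene counts from HTSeq and scaled each library by its DESeq2 size factor. The deposited values are this signal, normalized counts per gene and library. Versions and the strand setting are not given in the sources used here. In each library 100% of values were whole multiples of one step, within 0.01 of a read, which returned the reads, 12795490 to 21975045 per library. Columns were assigned to samples by title.

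Genes with a mean of at least 10 were tested with limma 3.58.1 (trend, no covariates) in R 4.3.3 on log2(normalized count + 1), a scale that understates changes of weakly expressed genes, with Benjamini-Hochberg adjustment and a threshold of 0.05. Standard errors and 95% intervals are from that fit. Alternatives were edgeR 4.0.16 and DESeq2 1.42.0 on the recovered reads, other scalings, pseudocounts, filters and thresholds, a replicate block, and fits that leave out a library. On these reads edgeR called 1401 genes higher and 1647 lower, and DESeq2 1118 and 1422, where adjusted p-values that DESeq2 did not give were left out. Log2 ratios of gene pairs were compared by exact permutation tests. Replicates of a group differed by more than sampling noise (chi-square per gene 2.71 to 9.26), so none was counted as a copy.

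Gene positions, canonical transcripts and 51-base stretches are from GENCODE 44 lifted to GRCh37, the build of hg19. Promoters are from RefSeq in GRCh38.p14, and coordinates of the builds were not combined. The genes, lists and pairs were chosen with earlier results of these data known. From these, 1 gene of the group and 1 marker are not reported here, and no pair was formed with H3F3A, so ratios were adjusted over 3 pairs. Named genes were the 9 histone genes, CDKN1A, the genes of each list with the lowest adjusted p, or every gene called in a direction with 5 or fewer, the markers, and the 3 profiles nearest to the histone gene with the lowest adjusted p.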

Additional observations from a re-analysis of the deposited data

How the results depend on the processing

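H2AFX, H2AFZ, H3F3B and H1FX kept their direction in every fit, and 4 histone genes were called lower under all alternatives over all libraries but one: without a filter on low values, 2 were lower, as H3F3B and H1FX had adjusted p-values of 0.073 and 0.0681 from limma. In that fit 254 genes in all were higher and 503 lower, and 23228 genes were tested in place of 13255. At a threshold of 0.01 in place of 0.05, 616 genes in all rose and 882 fell. With each library left out in turn, 695 to 1486 genes were higher and 887 to 1660 lower, the fewest without p21 ON replicate 1, while the histone genes lower stayed at 4. The log2 fold change of H2AFY, which was not called in any fit, was reversed to 0.0174 under scaling by library size alone and to 0.0191 without p21 OFF replicate 1, the highest of its range from -0.0674 with each library left out. The cause was not tested. Same-numbered libraries did not deviate together (correlations -0.057, -0.025 and -0.048). This cannot show whether they were prepared as pairs, which the labels do not say. A fit with the replicate block gave 1407 higher and 1513 lower genes and the same 4 lower histone genes, and the block left the log2 ratios of the gene pairs at -0.49 for H2AFZ/H2AFV and -0.68 for H2AFX/H2AFJ. Depth limits H2AFY2 most among the genes tested, with as few as 286 reads in a library.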
